A study of Arabidopsis thaliana with 4 samples.

Results

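EMB2786 (AT3G17300) is a nuclear gene of Arabidopsis thaliana named for an embryo-defective mutant, and the array annotation gave it 1 probe set. It was chosen by name, as a gene whose symbol is EMB followed by a number. RefSeq lists 160 protein-coding genes with such a symbol in assembly TAIR10.1. The array annotation ties 1 of them to a probe set of its own, out of 13513 probe sets with a single gene. The values below are therefore those of EMB2786 and not of embryo-defective genes as a class, most of which are not analysed here.

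Transcript levels were measured on Affymetrix ATH1 arrays of whole plants, 10 days old, of the Ws-2 ecotype. There were 4 groups with 1 array each: gpa1 with abscisic acid (ABA), gpa1 control, WS with ABA and WS control. The ABA groups received 100 µM for 3 h, each RNA sample came from 10 pooled plants, and gpa1 is a T-DNA line held as 1 stock, as WS is. The labels place the insertion at AT3G26300, which RefSeq names CYP71B34, while the line carries the name of GPA1, the G protein alpha subunit. No group had a replicate, and a single pool behind each reading limits how precise it can be.

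Genes of the EMB series were found in screens for mutants whose seeds stop developing at the embryo stage. Many of them encode basic machinery, such as organelle translation, RNA processing, protein folding and DNA replication, that growing cells need throughout life. ABA is the hormone of drought, seed maturation and dormancy, and in seedlings it slows growth. RefSeq annotates EMB2786 on chromosome 3 as protein-coding, with 3 transcripts and 3 proteins. Its annotated span overlaps that of DRM3, the gene that follows it. The sources used here do not give where the probes lie within EMB2786, or whether any of them reads DRM3.

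The EMB2786 signal was lower on both ABA arrays than on both control arrays. Its intensity was 61.5 in gpa1 with ABA, against 102.4 in gpa1 control. It was 80.6 in WS with ABA, against 132.1 in WS control. The ABA arrays did not overlap the control arrays, and the array with the highest value, WS control, stood 2.15-fold above the one with the lowest, gpa1 with ABA. All readings lay above 19.2, the 30th percentile of all intensities and the floor to which dimmer values were raised. The dimmest, gpa1 with ABA, was 3.20 times the floor, and the brightest, WS control, was 6.88 times the floor.

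**Figure D1:**
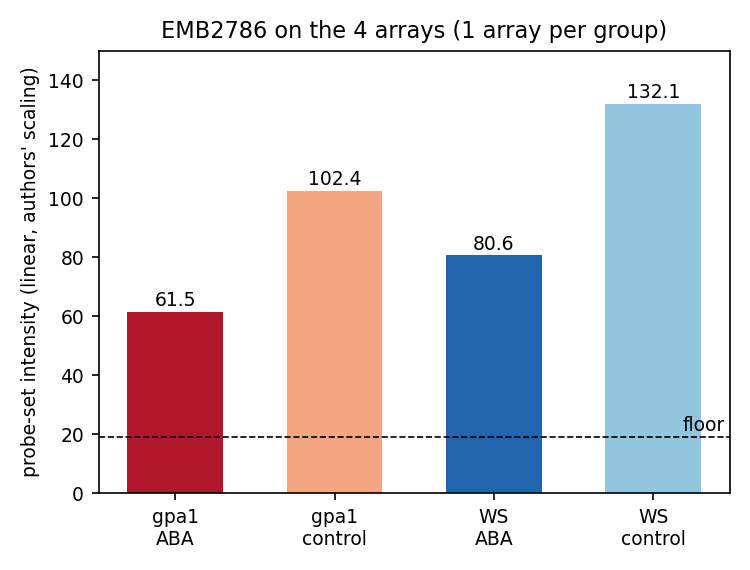
Bars show the probe-set intensity of EMB2786 (linear, as scaled by the authors) on each of the 4 arrays, with the floor of 19.2 as a dashed line; there are no error bars because each group has 1 array. Both ABA arrays, at 61.5 and 80.6, lie below both control arrays, at 102.4 and 132.1.

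The EMB2786 signal was lower with ABA by nearly the same proportion in each genotype. The ABA array read 39.9% below the control array in gpa1 and 39.0% below it in WS. These are ratios of 0.60 in gpa1 and 0.61 in WS, or log2 changes of -0.74 and -0.71. Averaged over both genotypes, the log2 change was -0.72 ± 0.20 (SE), and its 95% interval ran from -1.12 to -0.33. The adjusted p was 0.00141 with limma, in a fit of treatment and genotype over all 13647 tested probe sets. With no replicates, that fit takes its error from how far the 2 genotypes disagree on ABA, largely pooled over probe sets. In whole plants, fewer cells that express the gene and less RNA per cell cannot be told apart.

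A fall with ABA was common on these arrays. Of all tested probe sets, 25.7% were called lower with ABA by the same rule and 17.1% higher. EMB2786 was 1 of the 3508 tested probe sets called lower. Lower averaged changes than its own were seen in 1683 probe sets, or 12.3% of those tested. The median averaged change over all tested probe sets was -0.16, so EMB2786 lay 0.56 below it on the log2 scale. That distance was 0.58 within gpa1 and 0.56 within WS. At an equal trimmed mean, the median intensity was 42.8 on gpa1 ABA and 43.5 on WS ABA. It was 47.6 on gpa1 control and 48.0 on WS control. The shares called were counted under the authors' scaling only, and the part of the scaling in them was not tested.

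By size alone, EMB2786 was at least 1.5-fold lower with ABA in both genotypes, as were 12.2% of tested probe sets. It did not reach 2-fold in either genotype, a size that 3.80% of tested probe sets reached downward in both. The fold was 1.67 in gpa1 and 1.64 in WS. With 2 arrays against 2, an exact two-sided permutation test of the treatment labels gave p = 0.333, which is the smallest that 4 arrays allow. When treatment was fitted alone, the limma adjusted p was 0.0395, and with 1 array also left out it lay between 0.102 and 0.253, so the call was lost without gpa1 ABA, gpa1 control, WS ABA or WS control.

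The ABA responses of EMB2786 in the 2 genotypes differed little. Taking the WS log2 response from that of gpa1 left -0.02, which turned to 0.07 under quantile normalization. Of all tested probe sets, 4.78% had a smaller absolute difference. Multiplying the WS response into the gpa1 control reading gives an intensity of 62.5, beside the 61.5 measured in gpa1 with ABA. With 1 array per group this difference has no replicate check and no p-value. It therefore does not show that the responses were equal.

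**Figure D2:**
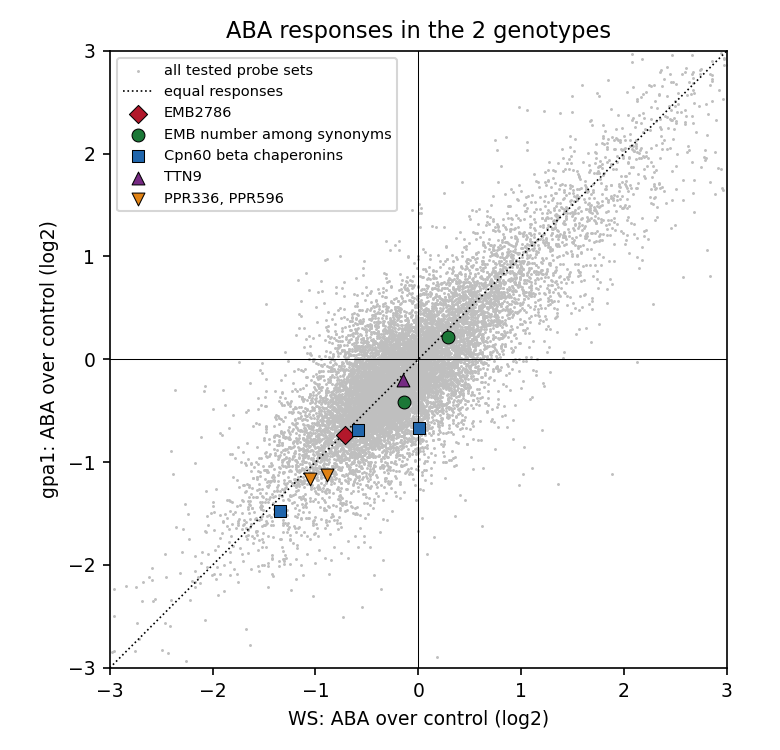
Each point is a tested probe set, with its log2 ABA response in WS on the horizontal axis and in gpa1 on the vertical axis; the dotted line marks equal responses, and the axes end at 3, which leaves 160 probe sets outside. EMB2786 (diamond, -0.71 in WS and -0.74 in gpa1) lies close to the line, inside the cloud of all tested probe sets.

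EMB2786 also read lower in gpa1 than in WS within each treatment, but this difference did not pass the test. The intensity was 61.5 in gpa1 with ABA, against 80.6 in WS with ABA, which is 23.7% lower. It was 102.4 in gpa1 control, against 132.1 in WS control, which is 22.5% lower. The genotypes overlapped across treatments, since gpa1 control read above WS with ABA. Averaged over both treatments, the gpa1-minus-WS log2 difference was -0.38 ± 0.20 (SE), its 95% interval running from -0.77 to 0.01, with a limma adjusted p of 0.479. Of all tested probe sets, 1.48% were called lower in gpa1, and EMB2786 was not among them. An exact two-sided permutation test of the genotype labels gave p = 0.667, in a design that cannot go below 0.333. The 2 genotypes came from different seed stocks, so genotype and stock cannot be told apart.

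The nearest named genes tested on chromosome 3 lay closer to 0 than EMB2786 in this difference in at least 1 treatment. They were taken as the 3 nearest on each side that had a named probe set of their own, a choice made after the value of EMB2786 was seen. Counted in annotated genes from EMB2786, they lay at -27, -22, -8, 6, 8 and 14. Unnamed probe sets could not be placed, so closer tested genes may have been passed over. AT3G17250, AT3G17350, AT3G17365 and AT3G17410 had gpa1-minus-WS log2 differences between -0.09 and 0.19 over both treatments. AT3G17130 had 0.12 with ABA and -0.04 in the controls. AT3G17160 had -0.47 with ABA and -0.01 in the controls, while EMB2786 had -0.39 with ABA and -0.37 in the controls. None of the 6 neighbours was called for genotype, the lowest limma adjusted p being 0.691 for AT3G17160. In gene order, EMB2786 and AT3G26300, the locus the labels give for the insertion, lie on the same chromosome, 1249 annotated genes apart. The labels' locus and the line's name point to different genes, and which of them is disrupted was not checked here.

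**Figure D3:**
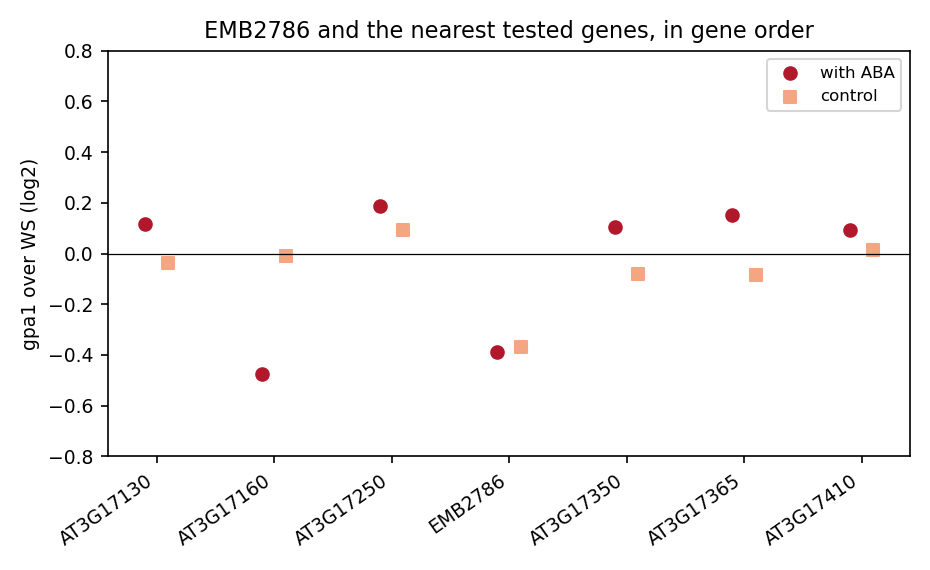
Points show the gpa1-minus-WS log2 difference of EMB2786 and of the 3 nearest named tested genes on each side, with ABA (circles) and in the controls (squares). They stand in gene order along chromosome 3, unevenly spaced, with other annotated genes between them. EMB2786 is near -0.4 in both treatments, while AT3G17160 is low with ABA and near 0 in the controls.

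AT3G17160 was also the neighbour called for ABA. Its intensity was 89.5 in gpa1 with ABA and 176.0 in gpa1 control, and 124.3 in WS with ABA and 177.4 in WS control. Its averaged change was -0.74, with a limma adjusted p of 8.8e-05, and this call too was lost whichever array was left out. The other 5 neighbours had averaged changes from -0.45 to 0.16 and did not pass.

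Some tested probe sets had a profile close to that of EMB2786 across all arrays. Likeness was measured as the root mean square difference of log2 values over the 4 arrays, after each gene's mean was taken off, a measure chosen after the values were seen. Of 13232 other tested probe sets above the floor on all arrays, 128 lay within 0.1 of EMB2786. The same count was not made for any other gene. The nearest with a gene name was AT4G16410, at 0.017. Its intensity was 233.7 in gpa1 with ABA and 379.2 in gpa1 control, and 298.3 in WS with ABA and 499.9 in WS control. AT1G35550, SP1L4, AT1G28395 and AT1G32190 followed, at 0.043 to 0.050. SP1L4 belongs to the SPIRAL1-like family, whose founding member acts on microtubules. All 5 have the same order of arrays as EMB2786, which follows from their choice by likeness. With 4 arrays such likeness is a description.

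A pair of genes carry an EMB number among their RefSeq synonyms only, and neither passed the test for ABA. GR, a glutathione reductase also listed as EMB2360, had 400.7 in gpa1 with ABA and 345.0 in gpa1 control, and 412.0 in WS with ABA and 336.6 in WS control. Its averaged change was 0.25 (limma adjusted p of 0.137), and it was called higher under median centring, with 0.40 and an adjusted p of 0.0171. LIS, also listed as EMB2776 and known as LACHESIS, a pre-mRNA splicing factor needed for gametic cell fate, had 73.7 in gpa1 with ABA and 98.3 in gpa1 control. In WS it had 92.7 with ABA and 102.2 in the control, and its averaged change was -0.28 (limma adjusted p of 0.263). EMB2786 and these genes thus did not share 1 direction in their values, and the differences between them were not tested.

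Other lists, picked by gene symbol for related machinery, held few named probe sets. Whether the genes in them are essential was not checked here. Of the chaperonin list, 3 members were tested, 2 were called lower with ABA (25.7% of all tested probe sets were) and none higher, with a median averaged change of -0.64, against -0.16 over all tested probe sets. Cpn60beta2, a beta subunit of the plastid chaperonin that folds imported proteins, had 97.8 in gpa1 with ABA and 272.2 in gpa1 control, and 104.1 in WS with ABA and 264.5 in WS control. It fell by 1.41 on the log2 scale on average, with a limma adjusted p of 7.17e-15, and stayed called whichever array was left out. Cpn60beta4, another beta subunit, had an averaged change of -0.64 and a limma adjusted p of 0.0237, but 0.0982 under median centring and 0.0636 under quantile normalization. With treatment fitted alone and 1 array left out, its adjusted p lay between 0.0965 and 0.219, so the call was lost without gpa1 ABA, gpa1 control, WS ABA or WS control. Cpn60beta3 read 119.1 in gpa1 with ABA and 188.7 in gpa1 control, but 165.1 in WS with ABA and 164.9 in WS control, and did not pass (limma adjusted p of 0.0866).

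Both tested genes with a PPR symbol, organelle RNA-binding pentatricopeptide repeat proteins, were called lower with ABA, as were 25.7% of all tested probe sets; this group was taken after the annotation had been seen. PPR336 had 31.8 in gpa1 with ABA and 71.4 in gpa1 control, and 34.0 in WS with ABA and 70.7 in WS control. PPR596 had log2 changes of -1.12 in gpa1 and -0.89 in WS. Their averaged changes were -1.11 and -1.01, with limma adjusted p-values of 6.28e-05 and 5.13e-07. EMB2786 fell by 0.72 on the same scale. With treatment fitted alone on 3 arrays, the call of PPR336 was lost whichever of the 4 arrays was left out (adjusted p of 0.0535 to 0.0584). That of PPR596 was lost without gpa1 ABA, gpa1 control or WS control (0.0574 to 0.0653). TTN9, named for the titan mutants with giant endosperm nuclei, had an averaged change of -0.17 and did not pass (limma adjusted p of 0.608).

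The seed programme list held 1 named probe set, PAP85, a vicilin-like storage protein, which was too dim to be tested. Its intensity was 30.7 in gpa1 with ABA and 12.3, below the floor, in gpa1 control, and 25.8 in WS with ABA and 30.4 in WS control. No named probe set was found for the MEE, EDA, OVA and PDE mutant series, for the protein import and replication licensing lists, or for the dividing cell markers. The part of changing numbers of dividing cells in the EMB2786 values was therefore not tested.

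The arrays themselves gave readings to set beside EMB2786. All 4 tested ABA markers rose, with LTI30, a dehydrin, at 2916.2 in gpa1 with ABA and 92.7 in gpa1 control. The call of COR15B was lost without gpa1 ABA or WS ABA (adjusted p of 0.0803 and 0.0747). The probe set of the large ribosomal RNA was brighter on gpa1 ABA and WS control, at 1800.2 and 2235.9, than on gpa1 control and WS ABA, at 1549.8 and 958.7. The geometric mean of 18 spike-in probe sets split the arrays the same way, at 484 and 513 against 339 and 293. The ratio of the 3′ to the 5′ actin probe set was 6.76 on gpa1 ABA, 8.71 on gpa1 control, 8.55 on WS ABA and 6.09 on WS control. That ratio was lowest on the array with the highest EMB2786 value, and next lowest on the array with the lowest. WS control read highest for EMB2786, as it did for the ribosomal RNA and the spike-ins. Next came gpa1 control for EMB2786, and gpa1 ABA for the ribosomal RNA and the spike-ins. The scanner background was 56.26 on WS control and 67.04 to 69.51 on the others. The part of the ribosomal RNA, spike-in, actin and background readings in the EMB2786 values was not tested. Of 2 tested root markers, 1 was called lower with ABA, beside 25.7% of all tested probe sets. This was EXPA18, with log2 changes of -0.02 in gpa1 and -1.27 in WS, while EXPA7 had 0.55 in gpa1 and -0.92 in WS. Of 4 tested shoot markers, 1 was called higher, beside 17.1% of all tested probe sets. Neither call held without the intensity trend (adjusted p of 0.064 and 0.0706). Under median centring the EXPA18 call was lost as well (limma adjusted p of 0.0508), while that of LHCB4.3 held (0.00232). Under quantile normalization the shoot markers LHCB4.1 and LHCB4.2 were called lower, with -0.31 and -0.40 (adjusted p of 0.0051 and 0.000725). Their averaged log2 changes ran from -0.64 for EXPA18 to 0.44 for LHCB4.3, and the part of either tissue in the EMB2786 values was not tested.

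**Figure D4:**
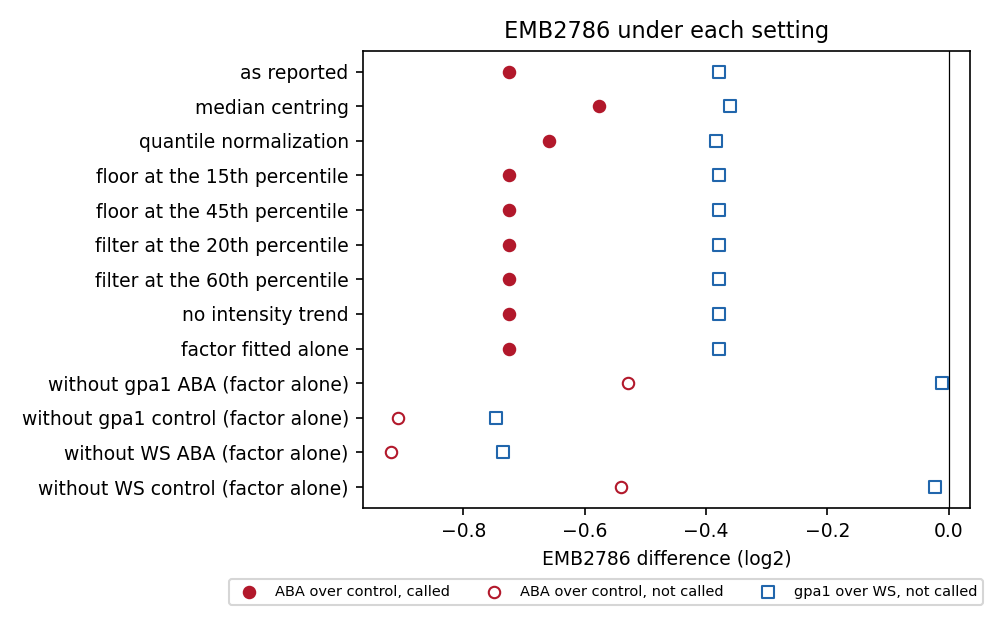
Points show the log2 difference of EMB2786 for ABA over control (circles) and for gpa1 over WS (squares) under each setting, filled where the limma adjusted p is under 0.05. The ABA difference is filled in the upper 9 settings, where it runs from -0.72 to -0.58, and open where 1 array is left out and treatment is fitted alone.

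The ABA difference of EMB2786 kept its sign in all 13 settings of that plot. Under median centring the averaged ABA change was -0.58 with a limma adjusted p of 0.0135, and under quantile normalization it was -0.66 with 0.00341. The gpa1-minus-WS difference was called in none of the settings. It was -0.01 without gpa1 ABA and -0.02 without WS control, in fits of genotype alone on 3 arrays that mix genotype with treatment. The fits of treatment alone on 3 arrays mix them as well.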

How the data were processed

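Total RNA, extracted with Trizol and a Qiagen kit, was made into biotin-labelled cRNA, per the labels' protocols. The authors deposited a linear intensity per probe set. The sources used here do not name the program that made it. The 2%-trimmed mean was 100.0 on each array, so the deposited intensities had been scaled. From the 22746 probe sets left after setting aside 64 controls, intensities below the 30th percentile were raised to it (19.2), log2 was taken, and the 13647 above the 40th percentile of mean log2 were tested. limma 3.58.1 (R 4.3.3) fitted treatment and genotype without interaction, with an intensity trend in eBayes, two-sided, adjusted by Benjamini-Hochberg over all tested probe sets, at 0.05. The fit has 1 residual degree of freedom per probe set against 178 prior ones for EMB2786. Names came from the platform annotation, updated through RefSeq TAIR10.1, and 8730 probe sets are unnamed here. The rule for named genes (largest changes, steadiest, brightest, dimmest and role groups of the EMB genes) came down to EMB2786, and roles were not assigned by search words because no product text was given. The genes and lists were chosen with earlier results of these data known. The fit was tested on simulated data. Alternatives covered scaling, floor, filter, variance trend and arrays left out.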

Additional observations from a re-analysis of the deposited data

Results flagged for a closer look

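EMB2786 itself changed the same way in both genotypes. Among the other genes and markers looked up, 5 had ABA changes of opposite sign in gpa1 and WS, with 1 array per group, so none of these differences was tested. For Cpn60beta3 the gpa1-minus-WS difference of the log2 responses was -0.67, where the WS response was close to 0. For PAP85 it was 0.91, with gpa1 control raised to the floor, so this difference is a lower bound. For AT3G17130, a neighbour of EMB2786, it was 0.15. For the root marker EXPA7 it was 1.47, and for RCA, the Rubisco activase among the shoot markers, 0.68. This difference sets gpa1 ABA and WS control against gpa1 control and WS ABA. The ribosomal RNA, spike-in and actin readings split the arrays into the same pairs, and their part in these differences was not tested.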

How the results depend on the processing

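EMB2786 was called lower with ABA, and its value stayed between -0.72 and -0.58, under the other scalings, floors, filters and variance model and with treatment fitted alone. With treatment fitted alone and 1 array left out, a choice of 2 changes together, the value lay between -0.92 and -0.53 and the count of called EMB genes was 0 each time, in place of 1; such a fit has 3 arrays and 1 residual degree of freedom. The gpa1-minus-WS difference was called in no setting and lay between -0.75 and -0.01 with 1 array left out. With 1 array left out, the values of this difference and of the ABA difference both mix genotype and treatment. The count of EMB genes changed at least 2-fold in both genotypes was 0 and became 1 at 1.5-fold. Counting EMB numbers among RefSeq synonyms, a choice made after the annotation was seen, gives 3 genes in place of 1. The gpa1 response minus the WS response of EMB2786 was -0.02 and turned to 0.07 under quantile normalization, a move smaller than the spread of the fit, as under every other alternative run. For the other 29 genes, markers included, 183 of 194 values under the 7 other settings kept their direction and their side of the threshold, 6 lost the call and 3 gained it. The other 2 were the uncalled change of RCA, which turned sign to 0.063 under median centring and 0.025 under quantile normalization. With treatment fitted alone or 1 array left out, 49 of 145 lost it and 5 uncalled values turned sign. With 1 array left out, RCA ranged from -0.26 to 0.086, EXPA7 from -0.56 to 0.18 and AT3G17130 from -0.031 to 0.086.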
